A study of Homo sapiens with 15 samples.

Results

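The hypoxia and HIF target genes comprised 38 genes chosen by name from textbook targets of the hypoxia-inducible factors (HIF), and all 38 were found by symbol among the 57773 genes listed for each library. The choice was made with earlier results of these data known. Shares of the group set beside those of all genes are therefore description, and no independent test of the group. They were followed in HepG2, a human hepatocellular carcinoma line that retains many hepatocyte functions, after 72 h with a chlorinated organophosphate flame retardant. Tris(2-chloroethyl) phosphate (TCEP) was given at 250 µM or 25 µM, and tris(2-chloroisopropyl) phosphate (TCIPP) at 25 µM or 2.5 µM. The controls received the solvent dimethyl sulfoxide (DMSO) at 0.1% and neither compound. Each of the 5 groups had 3 libraries, numbered 1 to 3 by the labels. Per the labels' protocols, every culture of a triplicate was seeded, grown, exposed and extracted on its own, and the cells were used at no more than 25 passages. All groups were thus the same cell line, and the labels mention no culture in low oxygen. TCIPP differs from TCEP by a methyl branch on each of its chloroalkyl arms.

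HIF is a dimer of an oxygen-labile alpha subunit (HIF1A or EPAS1) and the stable beta subunit ARNT. With oxygen present, prolyl hydroxylases of the EGLN family mark the alpha subunit for destruction through the VHL ubiquitin ligase, and the asparaginyl hydroxylase HIF1AN blocks its coactivator contact. When oxygen is short, HIF binds the core motif RCGTG near its targets, which include genes for glycolysis, pH control, angiogenesis, collagen modification and mitophagy. EGLN3 is itself a target, so the pathway restrains itself. In hepatocytes, HIF target genes also follow the oxygen gradient of the liver lobule.

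Levels are given as CPM (counts of exon reads scaled to TMM-adjusted library size), listed in the order of library numbers 1, 2 and 3. A library held 5353963 to 26771751 exon reads, with a median of 8890426, and 3 reads corresponded to 0.112 to 0.560 CPM. Of the 38 genes, 36 passed the filter on low counts and were tested among 12567 genes. CA12 (82 reads over all libraries) and BHLHE41 (22 reads) did not pass, and HILPDA was the lowest that did (243 reads). Within a library, per kilobase of exon, the order of levels with DMSO began with BNIP3 at 135 RPKM, PLOD2 at 97.1, P4HA1 at 87.7 and DDIT4 at 68.9 RPKM, and ended with CA12 at 0.0525 and BHLHE41 at 0.0457 RPKM. All 11 hepatocyte markers examined were present in every library, with a summed level of 46169 to 51141 CPM at 250 µM TCEP, 48672 to 49706 CPM at 25 µM TCEP, 47780 to 54387 CPM at 25 µM TCIPP, 47610 to 49834 CPM at 2.5 µM TCIPP and 49214 to 57687 CPM with DMSO. Of the fibroblast markers, COL1A2, DCN and LUM were at 0 in all 15 libraries, and the 7 markers summed to 32.8 to 54.8 CPM. Of 4 endothelial markers found, KDR and TEK were at 0 in 14 libraries, and the 4 summed to 1.07 to 1.50 CPM at 250 µM TCEP, 1.69 to 2.70 CPM at 25 µM TCEP, 1.47 to 1.88 CPM at 25 µM TCIPP, 1.97 to 2.26 CPM at 2.5 µM TCIPP and 0.990 to 1.92 CPM with DMSO. The endothelial sum was thus higher at the lower concentration of each compound, and its part in the results was not tested. The leukocyte marker PTPRC was at 0 in 14 libraries, and the 6 leukocyte markers summed to 4110 to 5413 CPM, almost all of it LYZ. CD68 was highest at the lower concentration of each compound, with a mean of 29.7 CPM at 250 µM TCEP, 37.3 CPM at 25 µM TCEP, 28.2 CPM at 25 µM TCIPP, 39.9 CPM at 2.5 µM TCIPP and 28.7 CPM with DMSO, and LYZ was lowest at 2.5 µM TCIPP. With the higher concentrations set against the lower ones, edgeR called no tested marker. At an unadjusted p under 0.05, CD68, CDH5, COL1A1, TF and FGB were then lower and PDGFRB was higher, and their part in the results was not tested. Fewer cells of a type and less RNA per cell cannot be told apart in these bulk libraries.

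The libraries numbered 2 stood apart for these genes. Of the 36 tested, 26 were highest in number 2 of their group at 250 µM TCEP, 25 at 25 µM TCEP, 17 at 25 µM TCIPP and 28 at 2.5 µM TCIPP, against 14 with DMSO, while the same share over all tested genes was 34.6% to 38.7% in every group. Deviations from the group means correlated across all tested genes by more than 0.1 in all 18 same-number pairs of treated libraries, with a lowest r of 0.130, but in only 3 of 12 pairs with a DMSO library. The r of these 12 pairs was 0.0164 to 0.158. Each of the 15 libraries nonetheless correlated most, on average, with libraries of its own number in the other groups. The numbers were taken to pair the treated libraries, where all pairs exceeded 0.1, though the labels do not say what a number shares. Comparisons among them are also given from a fit with the number as a block. That fit, on the 12 treated libraries, was chosen after the data were seen. The calls are given with and without the libraries numbered 2.

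**Figure D1:**
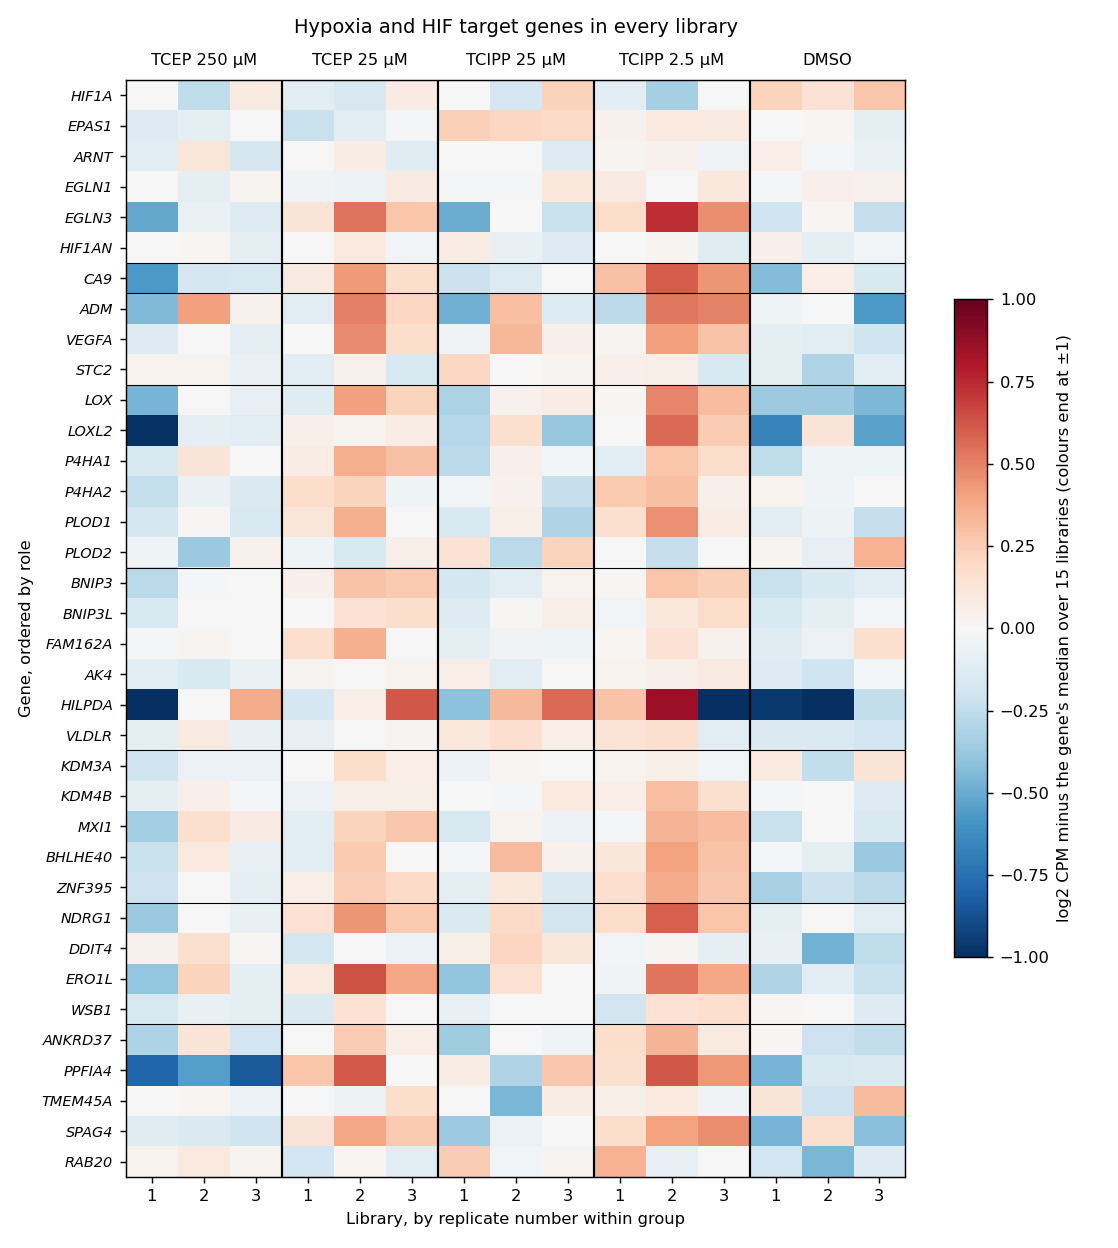
Rows are the 36 tested genes ordered by role and columns the 15 libraries by group and number; colour is log2 CPM minus the gene's median over the 15 libraries. The lower concentration of each compound, above all its library number 2, is mostly red, and most DMSO cells are blue, with HIF1A among the exceptions.

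The level of most of these genes was highest at the lower concentration of either compound. The order lower concentration, higher concentration, DMSO from high to low was held by the group means of 18 of 36 genes with TCEP (23.1% of all tested genes held it) and 21 of 36 with TCIPP (19.2%). In all, 27 of 36 genes were highest at the lower concentration of TCEP (37.1%), and 27 of 36 at the lower concentration of TCIPP (35.9%). DDIT4 and STC2 had another order with both compounds, highest at the higher concentration and lowest with DMSO, and HIF1A was highest with DMSO and lowest at the lower concentration. Both orders are set against the same 3 DMSO libraries, so the compounds are not independent in this respect.

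By library, the median over the 36 genes of the log2 CPM centred on each gene's mean was -0.18, 0.00052 and -0.05 in the libraries at 250 µM TCEP, and 0.0070, 0.20 and 0.08 at 25 µM TCEP. It was -0.07, 0.02 and 0.0016 at 25 µM TCIPP, 0.05, 0.27 and 0.13 at 2.5 µM TCIPP, and -0.13, -0.09 and -0.11 with DMSO. Within each number, the lower concentration lay above the higher one for both compounds.

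**Figure D2:**
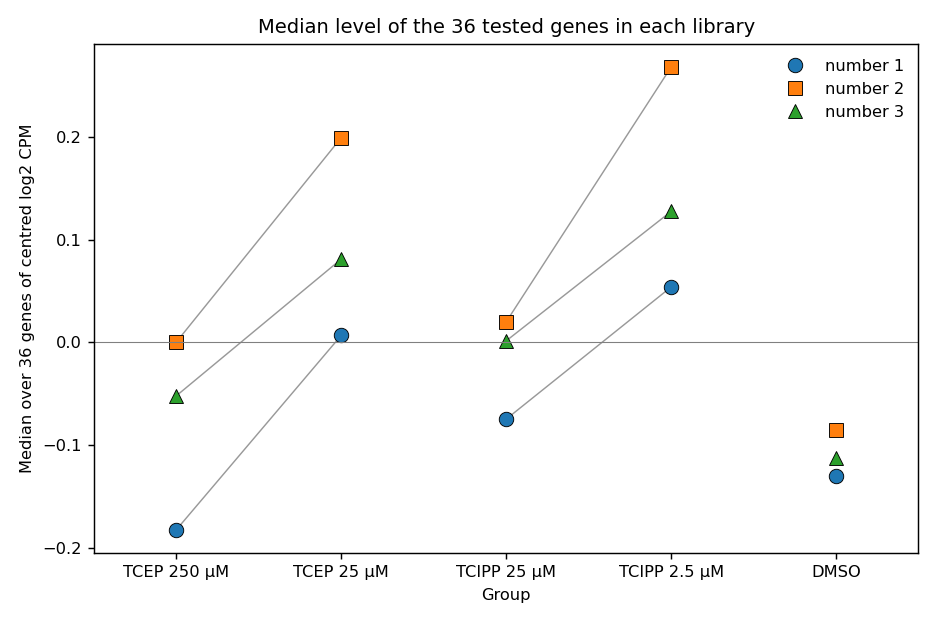
Each point is a library: the median over the 36 tested genes of centred log2 CPM, by group, with the marker giving the library number and grey lines joining same-number libraries of a compound. All 6 lines run up towards the lower concentration, and the DMSO libraries lie between -0.13 and -0.09.

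The contrast between concentrations gave the calls. With the 6 libraries at the higher concentrations set against the 6 at the lower ones, 7 of 36 genes fell (adjusted p under 0.05 over all genes, edgeR's quasi-likelihood test), where 0.700% of all tested genes were called lower and 1.09% in either direction. They were EGLN3, CA9, ZNF395, NDRG1, PPFIA4, SPAG4 and BNIP3. No gene of the group was called higher (0.390% of all genes). At an unadjusted p under 0.05, 19 genes were lower (8.61% of all genes) and 1, DDIT4, was higher (7.72%). The median log2 fold change over the 36 genes was -0.14, and 0.0022 over all tested genes. In CA9, EGLN3 and SPAG4 all 6 libraries at the higher concentrations lay below all 6 at the lower ones, which 0.812% of all genes did, and no gene lay wholly above (0.684%). DESeq2 called 10 genes (2.75% of all genes) and limma-voom 7 (1.50% of all genes), and both lists hold the 7 named above. The 25 µM libraries of TCIPP count as higher and those of TCEP as lower in this contrast, so it compares the steps within compounds and no single concentration.

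With the number as a block in the 12 treated libraries, 22 of the genes fell and DDIT4 rose. Of all genes, 7.77% were then called lower and 6.65% higher (14.4% in either direction). Single libraries decided the size of the count without the block. Without TCEP 250 µM number 1 or TCEP 25 µM number 2 it was 0, and without TCIPP 2.5 µM number 2 it was 1. It was 2 without TCEP 250 µM number 3 or TCIPP 25 µM number 1, 3 without TCIPP 25 µM number 3, and 4 without TCEP 25 µM number 3 or TCIPP 2.5 µM number 3. It was 5 to 9 without any 1 of the other libraries. Without all 5 libraries numbered 2 it was 4 (0.820% of all genes), namely EGLN3, NDRG1, PLOD1 and ZNF395. Of the 7 called with all libraries, CA9 then had an adjusted p of 0.0593, SPAG4 of 0.0661, PPFIA4 of 0.1199 and BNIP3 of 0.214, all with the same sign. The lower-concentration groups also had the lowest share of mitochondrial reads (6.60% at 250 µM TCEP and 6.15% at 25 µM; 7.03% at 25 µM TCIPP and 6.04% at 2.5 µM; 6.997% with DMSO) and of intron reads among gene reads (8.50%, 8.23%, 8.998%, 8.10% and 8.897% in the same groups). The part of these shares in the results was not tested.

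**Figure D3:**
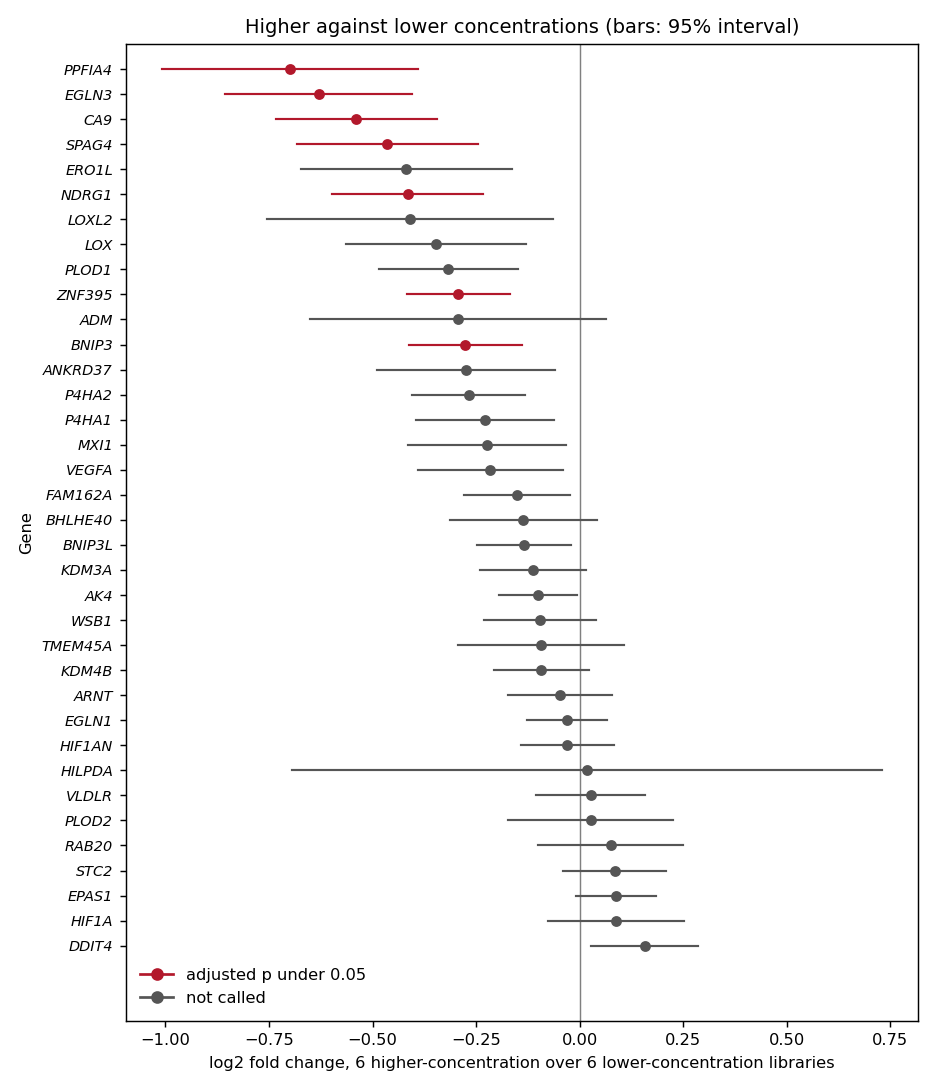
Points are log2 fold changes of the 6 higher-concentration over the 6 lower-concentration libraries for each of the 36 tested genes, with bars for the 95% interval; red marks an adjusted p under 0.05. The 7 called genes lie between -0.70 and -0.28, and DDIT4, at 0.16, is the highest.

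Among the oxygen sensors and HIF subunits, EGLN3 was the 1 of 6 genes that edgeR called between concentrations without the block. With it HIF1A also rose between the TCIPP concentrations, by 0.17 on the log2 scale (adjusted p = 0.0313). EGLN3 stood at 37.7, 51.3 and 49.1 CPM with TCEP at 250 µM and at 58.9, 78.4 and 65.3 CPM with TCEP at 25 µM. With TCIPP it stood at 38.2, 53.8 and 46.01 CPM at 25 µM and at 61.2, 89.7 and 74.3 CPM at 2.5 µM, and with DMSO at 46.95, 54.6 and 45.8 CPM. All libraries at the lower concentrations lay above all at the higher ones and above all of DMSO. Levels averaged 46.03 ± 6.76 CPM at the higher concentrations and 71.3 ± 11.7 CPM at the lower ones (SD, n = 6 each), and the log2 fold change was -0.63 ± 0.107 (± SE; adjusted p = 0.0156, edgeR). The EGLN3 call was lost when 1 library was left out, namely TCEP 250 µM number 1 or TCEP 25 µM number 2, with adjusted p-values of 0.0574 to 0.0582. EGLN3 spans chromosome 14, 34393437 to 34931980 (hg19), a span that also holds SPTSSA, with 12574 exon reads against 9797 of EGLN3, and the sources used here do not say whether reads were counted by strand.

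EGLN1, the main prolyl hydroxylase acting on HIF in normal oxygen, varied least over the 15 libraries among the 36 tested genes. EGLN1 had 146, 136 and 148 CPM with TCEP at 250 µM and 142, 140.1 and 155 CPM with TCEP at 25 µM. With TCIPP the EGLN1 level was 144, 145 and 157 CPM at 25 µM and 155, 145 and 157 CPM at 2.5 µM, and the DMSO libraries had 145, 151 and 150.0 CPM. The ranges of all groups overlapped. HIF1AN, the asparaginyl hydroxylase, likewise had overlapping groups. HIF1AN counted 69.4, 70.2 and 64.8 CPM at 250 µM TCEP and 69.5, 74.3 and 68.2 CPM at 25 µM TCEP. It counted 73.02, 66.0 and 63.3 CPM at 25 µM TCIPP, 69.3, 70.8 and 63.7 CPM at 2.5 µM TCIPP and 71.9, 64.99 and 67.97 CPM with DMSO. The HIF1AN span overlaps SEC31B, with 2502 exon reads, and NDUFB8 entries, with 1636 and 4476, against 11539 of HIF1AN. ARNT, the common partner of both alpha subunits, ranged from 38.7 to 47.1 CPM over all libraries. ARNT measured 40.4, 47.1 and 38.7 CPM with TCEP at 250 µM, and 43.5, 45.6 and 40.0 CPM with TCEP at 25 µM. It measured 43.5, 43.4 and 39.7 CPM with TCIPP at 25 µM, 44.4, 44.8 and 42.5 CPM with TCIPP at 2.5 µM and 45.5, 42.8 and 41.5 CPM with DMSO. None of these 3 genes had an unadjusted p under 0.05 in any of the 8 comparisons.

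The alpha subunits followed other orders than the target genes. HIF1A had 210.0, 177 and 224 CPM with TCEP at 250 µM and 196, 189 and 224 CPM with TCEP at 25 µM. With TCIPP the HIF1A level was 211, 187 and 248 CPM at 25 µM and 196, 167 and 211 CPM at 2.5 µM, and the DMSO libraries had 246, 234 and 256 CPM. The libraries at 250 µM TCEP, 25 µM TCEP and 2.5 µM TCIPP lay below all DMSO libraries, and those at 25 µM TCIPP overlapped DMSO. None of these differences passed adjustment: the log2 fold change against DMSO was -0.26 at 250 µM TCEP (adjusted p = 0.949), -0.27 at 25 µM TCEP (0.245) and -0.35 at 2.5 µM TCIPP (0.151, edgeR). Only 52.3% of the HIF1A exon reads were unique to one place. EPAS1 stood at 236, 239.8 and 257 CPM with TCEP at 250 µM and at 220.2, 239 and 254 CPM with TCEP at 25 µM. With TCIPP it stood at 304, 296 and 294 CPM at 25 µM and at 264, 275 and 274 CPM at 2.5 µM, and with DMSO at 257, 260.2 and 240.4 CPM. EPAS1 (HIF-2 alpha) stood above every other group in all 3 libraries at 25 µM TCIPP. Against DMSO its log2 fold change there was 0.24 ± 0.0648 (adjusted p = 0.414), and against 25 µM TCEP 0.32 ± 0.0648 (adjusted p = 0.0753). Neither was called by edgeR without the block, and both were called by DESeq2. With the block in edgeR, EPAS1 was higher than at 25 µM TCEP by 0.33 on the log2 scale (adjusted p = 0.000213). HIF is regulated mainly by the stability of the alpha subunit protein, which these data do not measure.

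**Figure D4:**
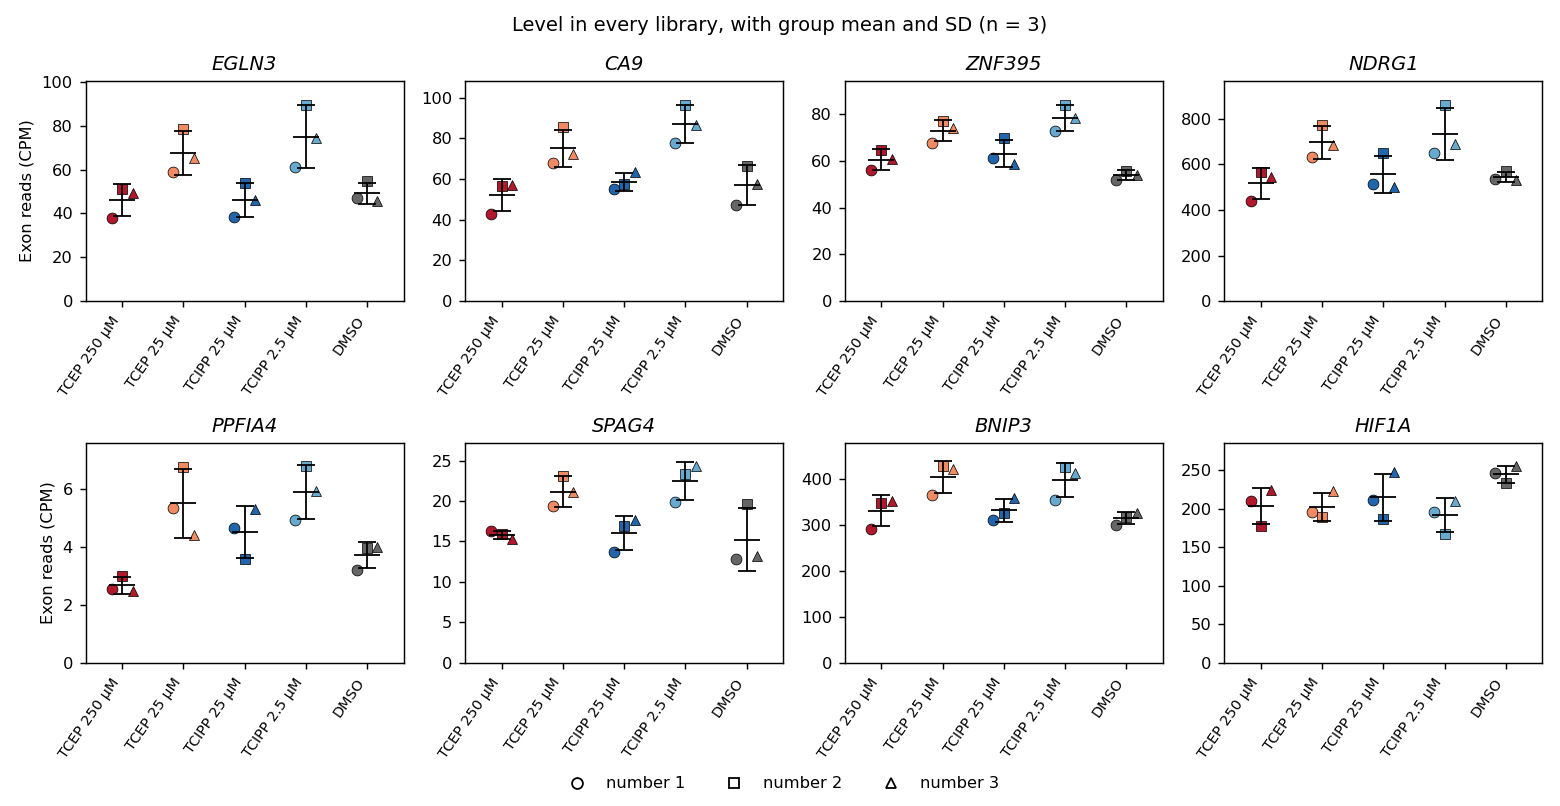
Exon reads (CPM, linear axes from 0) in every library for the 7 genes called between concentrations and HIF1A, by group; marker shape is the library number and black bars are the group mean and SD (n = 3). The target genes peak at 25 µM TCEP and 2.5 µM TCIPP, and HIF1A is highest with DMSO.

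CA9, a carbonic anhydrase at the cell surface that helps hypoxic cells export acid and is among the most HIF-dependent genes known, fell between concentrations as EGLN3 did. CA9 measured 42.8, 56.6 and 57.1 CPM with TCEP at 250 µM, and 67.7, 85.4 and 72.1 CPM with TCEP at 25 µM. It measured 54.9, 57.7 and 63.6 CPM with TCIPP at 25 µM, 77.8, 96.6 and 86.6 CPM with TCIPP at 2.5 µM and 47.1, 66.5 and 57.3 CPM with DMSO. With both compounds the lower-concentration libraries all lay above the higher-concentration and the DMSO libraries, and the higher-concentration libraries overlapped DMSO. The means were 55.5 ± 6.87 CPM at the higher concentrations and 81.02 ± 10.6 CPM at the lower ones (SD, n = 6 each), and the log2 fold change was -0.54 ± 0.0924 (± SE; adjusted p = 0.0156, edgeR). The CA9 call was lost when 1 library was left out, namely TCEP 250 µM number 1, TCEP 25 µM number 2 or TCIPP 2.5 µM number 2, with adjusted p-values of 0.0556 to 0.0593. Intron reads of CA9 (407 over all libraries) gave 0.06 for the same contrast. Its relative CA12 was barely detected, with 0 to 15 reads per library.

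Of the secreted signals, VEGFA, the main angiogenic growth factor, lay wholly above DMSO in 3 exposures, STC2 in the higher-concentration exposures, and ADM in none. VEGFA counted 288, 316 and 295 CPM at 250 µM TCEP and 314, 437 and 356 CPM at 25 µM TCEP. It counted 309, 396 and 327 CPM at 25 µM TCIPP, 322, 420.4 and 384 CPM at 2.5 µM TCIPP and 294, 292 and 274 CPM with DMSO. All libraries at 25 µM TCEP, 25 µM TCIPP and 2.5 µM TCIPP exceeded those of DMSO, and those at 250 µM TCEP overlapped them. The log2 fold change over DMSO was 0.36 at 25 µM TCEP (adjusted p = 0.176), 0.26 at 25 µM TCIPP (0.762) and 0.39 at 2.5 µM TCIPP (0.1395, edgeR), so none passed. Between the TCEP concentrations VEGFA fell in the fit with the number as a block, by 0.29 on the log2 scale (adjusted p = 0.00438), and without the block it did not pass (-0.30, adjusted p = 0.680). ADM encodes adrenomedullin, a peptide that widens blood vessels. ADM had 27.6, 49.97 and 38.8 CPM with TCEP at 250 µM and 34.7, 53.4 and 43.5 CPM with TCEP at 25 µM. With TCIPP the ADM level was 27.02, 46.3 and 34.3 CPM at 25 µM and 31.4, 54.2 and 53.03 CPM at 2.5 µM, and the DMSO libraries had 36.5, 37.6 and 25.2 CPM. Library number 1 was the lowest of its group in all 4 exposures, and every group overlapped every other. With the block ADM fell between the TCIPP concentrations, by 0.41 on the log2 scale (adjusted p = 0.00666). STC2, a secreted glycoprotein, ranged from 228 to 324 CPM over the 15 libraries, and all its libraries at 250 µM TCEP and at 25 µM TCIPP exceeded all of DMSO.

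The collagen-modifying enzymes other than PLOD2 were highest at the lower concentration of each compound, and edgeR called none across both compounds without the block. DESeq2 called LOX, P4HA2 and PLOD1 there, and with the block 5 of the 6 fell. Without the block their log2 fold changes ran from -0.41 to 0.03, with 5 of 6 below an unadjusted p of 0.05 and all 5 lower at the higher concentrations. LOX, the lysyl oxidase that cross-links collagen and elastin, varied most between groups. LOX stood at 133, 184 and 174 CPM with TCEP at 250 µM and at 169, 244 and 215 CPM with TCEP at 25 µM. With TCIPP it stood at 147, 189 and 193 CPM at 25 µM and at 185, 258 and 228 CPM at 2.5 µM, and with DMSO at 142, 143 and 135 CPM. All exposed libraries except number 1 at 250 µM TCEP exceeded all DMSO libraries. Against DMSO the log2 fold change was 0.58 ± 0.145 at 25 µM TCEP (adjusted p = 0.125) and 0.68 ± 0.145 at 2.5 µM TCIPP (0.0571, edgeR). Neither passed with edgeR, and DESeq2 called both. With the block LOX fell by 0.35 between the TCEP concentrations (adjusted p = 0.000298) and by 0.33 between the TCIPP concentrations (0.000248) on the log2 scale. Only 57.9% of the LOX exon reads were unique to one place.

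P4HA1 and P4HA2 are the catalytic subunits of the collagen prolyl 4-hydroxylase, an enzyme that needs oxygen as EGLN enzymes do. P4HA1 had 296, 363 and 331 CPM with TCEP at 250 µM and 349, 425 and 407 CPM with TCEP at 25 µM. With TCIPP the P4HA1 level was 274, 343 and 324 CPM at 25 µM and 307, 401 and 374 CPM at 2.5 µM, and the DMSO libraries had 278, 321 and 322 CPM. The 25 µM TCEP libraries lay above all DMSO libraries and above all at 25 µM TCIPP, and the concentrations of each compound overlapped. With the block P4HA1 fell by 0.26 with TCEP (adjusted p = 0.000793) and by 0.20 with TCIPP (0.00382) on the log2 scale. P4HA2 counted 71.5, 80.4 and 76.01 CPM at 250 µM TCEP and 95.01, 98.03 and 81.6 CPM at 25 µM TCEP. It counted 82.5, 86.9 and 71.8 CPM at 25 µM TCIPP, 101, 104 and 87.1 CPM at 2.5 µM TCIPP and 86.2, 81.95 and 84.2 CPM with DMSO. Within each compound all P4HA2 libraries at the higher concentration lay below all at the lower one. Across both compounds the P4HA2 log2 fold change was -0.27 ± 0.0643 (adjusted p = 0.0514, edgeR), just short of a call. With the block P4HA2 fell by 0.25 with TCEP (adjusted p = 0.0205) and by 0.27 with TCIPP (0.0101) on the log2 scale.

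PLOD1 hydroxylates collagen lysines. PLOD1 measured 312, 353 and 315 CPM with TCEP at 250 µM, and 380.0, 451 and 350.1 CPM with TCEP at 25 µM. It measured 314, 364 and 284 CPM with TCIPP at 25 µM, 392, 479 and 368 CPM with TCIPP at 2.5 µM and 323, 338 and 298 CPM with DMSO. The concentrations of TCIPP did not overlap and those of TCEP did. Across both compounds its log2 fold change was -0.32 ± 0.0793 (adjusted p = 0.0576, edgeR). With the block PLOD1 fell by 0.31 across both compounds (adjusted p = 5.19e-06), by 0.26 with TCEP (0.00254) and by 0.36 with TCIPP (0.000111) on the log2 scale. PLOD2, which hydroxylates the telopeptide lysines of collagen, ranged from 584 to 962 CPM, with its highest group mean with DMSO (817 ± 129 CPM; SD, n = 3) and 66.8% of its reads unique. LOXL2, a relative of LOX, was low at 3.49 to 10.2 CPM, and its span overlaps ENTPD4, which had 6928 exon reads against 1125.

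BNIP3, a mitochondrial outer-membrane receptor for mitophagy, had the highest level per kilobase with DMSO and fell between concentrations. BNIP3 stood at 291, 348 and 351 CPM with TCEP at 250 µM and at 364, 427 and 421 CPM with TCEP at 25 µM. With TCIPP it stood at 310.0, 325 and 359 CPM at 25 µM and at 354, 424 and 413 CPM at 2.5 µM, and with DMSO at 300.1, 316 and 326 CPM. The concentrations of TCEP did not overlap, and those of TCIPP overlapped only through library number 1 at 2.5 µM and number 3 at 25 µM. The means were 331 ± 26.4 CPM at the higher concentrations and 400.4 ± 32.6 CPM at the lower ones (SD, n = 6 each; log2 fold change -0.28 ± 0.0646, ± SE; adjusted p = 0.0485, edgeR). The BNIP3 call was lost when 1 library was left out, namely TCEP 250 µM number 1 or 3, TCEP 25 µM number 2 or 3, TCIPP 25 µM number 1, 2 or 3, TCIPP 2.5 µM number 2 or 3 or DMSO number 1 or 3, with adjusted p-values of 0.0512 to 0.155. Both lower-concentration groups lay wholly above DMSO, by 0.36 at 25 µM TCEP (adjusted p = 0.128) and 0.34 at 2.5 µM TCIPP (0.113) on the log2 scale, which edgeR did not call and DESeq2 called.

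No other mitochondrial or lipid gene was called between concentrations by edgeR without the block. BNIP3L, the second receptor of that kind, ranged from 169 to 213 CPM over the 15 libraries, AK4, a mitochondrial adenylate kinase, from 225 to 275 CPM, and FAM162A, a mitochondrial protein linked to cell death in hypoxia, from 107 to 149 CPM. These 3 and BNIP3 were the 4 of 6 genes of the group with an unadjusted p under 0.05 across both compounds, all lower at the higher concentrations. With the block the other 3 fell too, BNIP3L by 0.13 on the log2 scale (adjusted p = 0.00279), AK4 by 0.10 (0.0284) and FAM162A by 0.14 (0.0243). HILPDA, which coats lipid droplets and restrains their lipase, had 4 to 41 reads per library and ranged from 0.495 to 2.71 CPM, and no comparison had an unadjusted p under 0.05. VLDLR, a receptor that takes up triglyceride-rich lipoproteins, was above DMSO in every exposure. VLDLR had 24.2, 27.5 and 24.5 CPM with TCEP at 250 µM and 24.3, 25.7 and 26.2 CPM with TCEP at 25 µM. With TCIPP the VLDLR level was 27.7, 28.96 and 26.9 CPM at 25 µM and 28.3, 28.8 and 23.9 CPM at 2.5 µM, and the DMSO libraries had 23.3, 23.3 and 22.5 CPM. All 12 exposed libraries exceeded all 3 DMSO libraries, and no comparison with DMSO was called by edgeR. The log2 fold change over DMSO was 0.27 ± 0.0901 at 25 µM TCIPP (adjusted p = 0.575) and 0.21 ± 0.0884 at 2.5 µM TCIPP (0.2903).

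ZNF395, a zinc-finger transcription factor induced in hypoxia, was the only gene of the group that edgeR called against DMSO, where DESeq2 and limma-voom called more. ZNF395 counted 56.4, 64.97 and 60.7 CPM at 250 µM TCEP and 67.97, 77.01 and 74.3 CPM at 25 µM TCEP. It counted 61.2, 69.95 and 58.6 CPM at 25 µM TCIPP, 72.8, 84.2 and 78.3 CPM at 2.5 µM TCIPP and 51.9, 55.95 and 54.2 CPM with DMSO. All 12 exposed libraries exceeded all 3 DMSO libraries, and within each compound the concentrations did not overlap. ZNF395 rose at 2.5 µM TCIPP to 78.5 ± 5.69 CPM, against 54.04 ± 2.01 CPM with DMSO (SD, n = 3 each), at 0.54 ± 0.0833 on the log2 scale (± SE; adjusted p = 0.0312, edgeR), where 0.0716% of all genes were called higher. The ZNF395 call was lost when 1 library was left out, namely TCEP 250 µM number 3, TCEP 25 µM number 1 or 3, TCIPP 2.5 µM number 2 or 3 or DMSO number 1 or 3, with adjusted p-values of 0.0512 to 0.235. Without all libraries numbered 2 it held (adjusted p = 0.0252). At 25 µM TCEP its log2 fold change over DMSO was 0.43 ± 0.08298 (adjusted p = 0.116), the smallest p of the group there, and not called. Between concentrations ZNF395 fell to 61.97 ± 4.85 CPM at the higher ones, against 75.8 ± 5.50 CPM at the lower ones (SD, n = 6 each; log2 fold change -0.29 ± 0.05904; adjusted p = 0.0296, edgeR). That call was lost without TCEP 250 µM number 1 or 3, TCEP 25 µM number 2 or 3, TCIPP 25 µM number 1 or 3 or TCIPP 2.5 µM number 2 or 3, with adjusted p-values of 0.0533 to 0.107. Of its exon reads, 64.2% were unique to one place.

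BHLHE40, a repressor that links hypoxia to the circadian clock, was higher than DMSO in every library exposed to TCIPP. BHLHE40 measured 187, 232 and 205 CPM with TCEP at 250 µM, and 201, 259.8 and 217 CPM with TCEP at 25 µM. It measured 215, 271 and 223 CPM with TCIPP at 25 µM, 235, 286 and 264 CPM with TCIPP at 2.5 µM and 214, 203 and 168 CPM with DMSO. The TCEP libraries overlapped DMSO. The log2 fold change over DMSO was 0.28 at 25 µM TCIPP (adjusted p = 0.739) and 0.43 at 2.5 µM TCIPP (0.118, edgeR), and DESeq2 called that at 2.5 µM. Its paralogue BHLHE41 had 0 to 6 reads per library. The histone demethylases KDM3A and KDM4B ranged from 192 to 256 CPM and 44.02 to 59.2 CPM, and MXI1, which competes with MYC for its partner MAX, from 39.5 to 63.3 CPM. With the block MXI1 fell between the TCIPP concentrations, by 0.28 on the log2 scale (adjusted p = 0.0168), and KDM3A fell between the TCEP concentrations, by 0.18 (0.0205).

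Among the stress and growth genes, NDRG1 fell between concentrations and DDIT4 ran the other way. NDRG1 is a stress-responsive cytoplasmic protein used as a hypoxia marker in tumours. NDRG1 had 441, 568 and 543 CPM with TCEP at 250 µM and 631, 774 and 685 CPM with TCEP at 25 µM. With TCIPP the NDRG1 level was 515, 650.0 and 501 CPM at 25 µM and 648, 862 and 691 CPM at 2.5 µM, and the DMSO libraries had 534, 570.2 and 530.2 CPM. The concentrations of TCEP did not overlap, and those of TCIPP overlapped through number 1 at 2.5 µM and number 2 at 25 µM. Its means were 536 ± 70.3 CPM at the higher concentrations and 715 ± 87.5 CPM at the lower ones (SD, n = 6 each), and the log2 fold change was -0.42 ± 0.0859 (± SE; adjusted p = 0.0339, edgeR). The NDRG1 call was lost when 1 library was left out, namely TCEP 250 µM number 1 or 3, TCEP 25 µM number 2 or 3, TCIPP 25 µM number 1 or 3 or TCIPP 2.5 µM number 2, with adjusted p-values of 0.05197 to 0.118. ERO1L, which supplies oxidising equivalents for disulfide bonds in the endoplasmic reticulum, had a wide spread between numbers. ERO1L counted 278, 424 and 340.5 CPM at 250 µM TCEP and 389, 565 and 475 CPM at 25 µM TCEP. It counted 276, 403 and 363 CPM at 25 µM TCIPP, 354, 527 and 474 CPM at 2.5 µM TCIPP and 295, 335 and 310.5 CPM with DMSO. Number 2 was the highest and number 1 the lowest in each of the 5 groups. ERO1L was not called across both compounds (-0.42 ± 0.1204; adjusted p = 0.0985, edgeR). With the block it fell by 0.46 with TCEP (adjusted p = 2.26e-05) and by 0.38 with TCIPP (3.89e-05) on the log2 scale.

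DDIT4 encodes REDD1, an inhibitor of the growth kinase complex mTORC1 that responds to hypoxia and to many other stresses. DDIT4 stood at 192, 208 and 188 CPM with TCEP at 250 µM and at 164, 186 and 178 CPM with TCEP at 25 µM. With TCIPP it stood at 194, 216 and 202 CPM at 25 µM and at 183, 189 and 174 CPM at 2.5 µM, and with DMSO at 177, 134 and 156 CPM. Within each compound all libraries at the higher concentration lay above all at the lower one, and both higher-concentration groups lay above DMSO. Over DMSO the log2 fold change was 0.33 ± 0.0868 at 250 µM TCEP (adjusted p = 0.542) and 0.38 ± 0.0872 at 25 µM TCIPP (0.186). Neither passed with edgeR, and DESeq2 called the second. With the block DDIT4 rose between the TCIPP concentrations by 0.17 on the log2 scale (adjusted p = 0.0274). Only 23.6% of its exon reads were unique to one place, so reads of near-identical copies may be among them. WSB1, a substrate-binding subunit of a ubiquitin ligase, ranged from 129 to 165 CPM, with every group overlapping every other.

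PPFIA4 and SPAG4 both fell between concentrations, at low levels. PPFIA4 encodes a liprin, a scaffold protein. PPFIA4 measured 2.55, 3.001 and 2.46 CPM with TCEP at 250 µM, and 5.33, 6.75 and 4.41 CPM with TCEP at 25 µM. It measured 4.63, 3.57 and 5.32 CPM with TCIPP at 25 µM, 4.93, 6.78 and 5.94 CPM with TCIPP at 2.5 µM and 3.199, 3.96 and 3.98 CPM with DMSO. All libraries at 250 µM TCEP lay below every other library, and the TCIPP concentrations overlapped. PPFIA4 averaged 3.59 ± 1.17 CPM at the higher concentrations and 5.69 ± 0.971 CPM at the lower ones (SD, n = 6 each; log2 fold change -0.70 ± 0.147, ± SE; adjusted p = 0.0362, edgeR). The PPFIA4 call was lost when 1 library was left out, namely TCEP 250 µM number 1 or 3, TCEP 25 µM number 1 or 2, TCIPP 25 µM number 1 or TCIPP 2.5 µM number 2 or 3, with adjusted p-values of 0.0562 to 0.118. Between the TCEP concentrations it had the lowest log2 fold change of the group, -1.05 ± 0.212 (adjusted p = 0.458), and it fell there with the block (-1.03; adjusted p = 0.00948). SPAG4 is a SUN-domain protein of the nuclear envelope. SPAG4 stood at 16.2, 15.9 and 15.3 CPM with TCEP at 250 µM and at 19.3, 23.05 and 21.2 CPM with TCEP at 25 µM. With TCIPP it stood at 13.7, 16.9 and 17.6 CPM at 25 µM and at 19.9, 23.4 and 24.3 CPM at 2.5 µM, and with DMSO at 12.8, 19.7 and 13.2 CPM. The 3 libraries at 250 µM TCEP lay within 1 CPM of each other, and DMSO number 2 reached into the range of the lower concentrations. SPAG4 averaged 15.9 ± 1.37 CPM at the higher concentrations and 21.8 ± 2.03 CPM at the lower ones (SD, n = 6 each; log2 fold change -0.46 ± 0.103, ± SE; adjusted p = 0.0419, edgeR). The SPAG4 call was lost when 1 library was left out, namely TCEP 250 µM number 1 or 3, TCEP 25 µM number 1, 2 or 3, TCIPP 25 µM number 1 or 3 or TCIPP 2.5 µM number 2 or 3, with adjusted p-values of 0.0548 to 0.134.

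ANKRD37, an ankyrin-repeat protein, had a low level, highest at the lower concentration of each compound. ANKRD37 had 8.05, 10.95 and 8.75 CPM with TCEP at 250 µM and 9.996, 11.9 and 10.4 CPM with TCEP at 25 µM. With TCIPP the ANKRD37 level was 7.80, 9.97 and 9.76 CPM at 25 µM and 11.3, 12.7 and 10.6 CPM at 2.5 µM, and the DMSO libraries had 10.1, 8.67 and 8.42 CPM. The TCIPP concentrations did not overlap and those of TCEP did, and with the block it fell across both compounds by 0.27 on the log2 scale (adjusted p = 0.0398). Its span overlaps UFSP2, which had 4262 exon reads against 1672. RAB20, a small GTPase of endosomes and phagosomes, was higher than DMSO in all libraries of 3 exposures. RAB20 counted 24.7, 25.8 and 24.5 CPM at 250 µM TCEP and 21.1, 24.4 and 22.4 CPM at 25 µM TCEP. It counted 28.7, 23.7 and 24.6 CPM at 25 µM TCIPP, 30.7, 22.8 and 24.1 CPM at 2.5 µM TCIPP and 21.1, 17.6 and 22.03 CPM with DMSO. Libraries at 25 µM TCEP overlapped DMSO. The log2 fold change over DMSO was 0.34 ± 0.119 at 25 µM TCIPP (adjusted p = 0.608), 0.33 ± 0.117 at 2.5 µM TCIPP (0.201) and 0.29 ± 0.117 at 250 µM TCEP (0.946), none called by edgeR. TMEM45A, a transmembrane protein, ranged from 14.5 to 24.7 CPM, with every group overlapping every other.

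Start-site windows of 300 bases, 250 before and 50 after the start, were taken from RefSeq (GRCh38.p14) and searched for ACGTG, the HIF core with its leading A, on both strands. A window was found for 30 of the 38 genes. ACGTG or its reverse complement CACGT occurred in the first window of 16 of 30 genes (53.3%), and of 21.6% of all 27305 genes. ACGTG or GCGTG occurred in 24 of 30 (80%) and in 48.4% of all genes. Where the match reads CACGTG it counts on both strands and also makes an E-box, the site of MYC and clock factors. The windows of 4 genes that fell between concentrations are shown, 5′ to 3′ on the strand of the gene, with the match in capitals. CA9 has 1 match at -18 from the start, BNIP3 a CACGTG that begins at -134, PPFIA4 a CACGTG that begins at -119, and EGLN3 none in its window.
CA9 (chr9:35673678-35673977, forward strand): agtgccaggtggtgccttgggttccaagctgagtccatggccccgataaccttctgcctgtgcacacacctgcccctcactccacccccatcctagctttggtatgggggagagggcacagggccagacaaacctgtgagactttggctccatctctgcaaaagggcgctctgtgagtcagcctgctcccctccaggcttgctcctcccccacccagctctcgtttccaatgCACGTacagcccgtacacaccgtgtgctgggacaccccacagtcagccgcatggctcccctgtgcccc
BNIP3 (chr10:131981874-131982173, reverse strand): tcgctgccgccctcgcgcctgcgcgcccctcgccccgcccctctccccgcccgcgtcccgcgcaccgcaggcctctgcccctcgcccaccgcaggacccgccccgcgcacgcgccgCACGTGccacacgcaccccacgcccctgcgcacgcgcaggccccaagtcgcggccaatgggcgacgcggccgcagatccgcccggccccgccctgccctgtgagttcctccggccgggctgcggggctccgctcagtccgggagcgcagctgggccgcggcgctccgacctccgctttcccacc
PPFIA4 (chr1:203026241-203026540, forward strand): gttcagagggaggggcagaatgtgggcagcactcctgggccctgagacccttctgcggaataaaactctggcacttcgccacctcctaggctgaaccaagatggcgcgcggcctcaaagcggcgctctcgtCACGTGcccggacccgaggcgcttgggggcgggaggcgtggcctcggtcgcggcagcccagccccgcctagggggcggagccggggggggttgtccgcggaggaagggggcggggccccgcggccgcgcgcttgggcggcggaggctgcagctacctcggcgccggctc
EGLN3 (chr14:33951025-33951324, reverse strand): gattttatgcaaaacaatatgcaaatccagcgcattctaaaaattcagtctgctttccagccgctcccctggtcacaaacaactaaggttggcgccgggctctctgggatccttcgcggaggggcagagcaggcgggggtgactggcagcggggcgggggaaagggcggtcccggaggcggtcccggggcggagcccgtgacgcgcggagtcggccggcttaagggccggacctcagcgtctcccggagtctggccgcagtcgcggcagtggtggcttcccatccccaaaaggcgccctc
A match describes the letters only and does not show binding. The window for EGLN3 is the RefSeq start, and no regulatory sequence outside the windows was searched.

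Against DMSO, edgeR made 1 call in the 4 comparisons, and more of these genes passed without adjustment at the lower concentration of each compound than at the higher one. All 4 share the same 3 DMSO libraries. At 250 µM TCEP edgeR called 0 of 36 genes (0% of all genes), as did DESeq2 (0.111%) and limma-voom (0%). Without adjustment, at a p under 0.05, DDIT4 and RAB20 were higher (2.39% of all genes) and HIF1A and PPFIA4 lower (2.81%), and the median log2 fold change was 0.03. In 5 genes all libraries exceeded all of DMSO (5.52%), and in 3 all lay below (5.37%). At 25 µM TCEP edgeR and limma-voom called 0 of 36 (0% and 0.0318% of all genes), and DESeq2 called BNIP3, LOX and ZNF395 (1.10%). Unadjusted, 13 genes were higher (7.42%) and HIF1A was lower (7.81%), with a median of 0.20. The 13 were BNIP3, BNIP3L, CA9, EGLN3, ERO1L, LOX, NDRG1, P4HA1, PLOD1, PPFIA4, SPAG4, VEGFA and ZNF395. In 15 genes all libraries exceeded all of DMSO (11.4% of all genes), and in 1, HIF1A, all lay below (11.3%).

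At 25 µM TCIPP edgeR and limma-voom called 0 of 36 genes (0.00796% of all genes each), and DESeq2 called DDIT4 and EPAS1 (0.239%). Without adjustment, 9 genes were higher (3.41%) and 0 lower (2.95%), with a median log2 fold change of 0.07. They were BHLHE40, DDIT4, EPAS1, LOX, RAB20, STC2, VEGFA, VLDLR and ZNF395. In 9 genes all libraries exceeded all of DMSO (4.77%), and in 0 all lay below (4.30%). At 2.5 µM TCIPP edgeR called 1 gene, ZNF395 (0.0955% of all genes in either direction, 0.0239% lower). Limma-voom called CA9, LOX, SPAG4 and ZNF395 (0.828%). DESeq2 called 8 (1.89%), which added BHLHE40, BNIP3, EGLN3 and NDRG1. Unadjusted, 23 genes were higher (7.81%) and HIF1A was lower (6.06%), with a median of 0.28. CA9 and LOX followed ZNF395 with adjusted p-values of 0.0571 and 0.0571, at log2 fold changes of 0.61 ± 0.129 and 0.68 ± 0.145. In 19 genes all 2.5 µM libraries exceeded all of DMSO (8.82% of all genes), and in 1, HIF1A, all lay below (7.94%). The edgeR count at 2.5 µM was 0 without TCEP 250 µM number 3, TCEP 25 µM number 1 or 3, TCIPP 2.5 µM number 2 or 3 or DMSO number 1 or 3, 3 without TCIPP 25 µM number 1, and 5 without TCIPP 2.5 µM number 1 or DMSO number 2.

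The step between concentrations was then taken within each compound, where the 2 steps share no library. For 250 µM against 25 µM TCEP, edgeR, DESeq2 and limma-voom called 0 of 36 genes (0%, 0.111% and 0% of all genes). Without adjustment, 14 genes were lower (3.83%) and 0 higher (3.33%), and the median log2 fold change was -0.18. In 12 genes all libraries at 250 µM lay below all at 25 µM (7.55%), and in DDIT4 and RAB20 all lay above (7.40%). With the block 15 genes fell, where 2.49% of all genes were called lower and 4.44% in either direction. They were BNIP3, BNIP3L, CA9, EGLN3, ERO1L, KDM3A, LOX, NDRG1, P4HA1, P4HA2, PLOD1, PPFIA4, SPAG4, VEGFA and ZNF395. EGLN3 had a log2 fold change of -0.54 ± 0.1495 (adjusted p = 0.545) without the block and -0.54 (adjusted p = 0.000121) with it, and CA9 had -0.51 ± 0.1301 (0.521) and -0.51 (0.000486).

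For 25 µM against 2.5 µM TCIPP, edgeR and limma-voom called 0 of 36 genes (0% of all genes each), and DESeq2 called CA9 and EGLN3 (0.493%). Unadjusted, 12 genes were lower (5.78%) and 0 higher (5.03%), with a median log2 fold change of -0.14. In 8 genes all libraries at 25 µM lay below all at 2.5 µM (6.57%), and in DDIT4 and EPAS1 all lay above (5.84%). With the block 14 genes fell and DDIT4 and HIF1A rose. Of all genes, 4.26% were then called lower and 3.32% higher (7.58% in either direction). The 14 were ADM, BHLHE40, BNIP3, CA9, EGLN3, ERO1L, LOX, MXI1, NDRG1, P4HA1, P4HA2, PLOD1, SPAG4 and ZNF395. EGLN3 had a log2 fold change of -0.72 ± 0.153 (adjusted p = 0.191) without the block and -0.70 (adjusted p = 4.47e-06) with it, and CA9 had -0.56 ± 0.131 (0.191) and -0.54 (0.000171). Across the 6 same-number pairs of the 2 steps, 21 of 36 genes were lower at the higher concentration in all 6, as were 9.51% of all tested genes. DDIT4 and EPAS1 were higher in all 6 (8.62%). The difference between the steps was tested for every gene. EdgeR called 0 of 36 (0% of all genes). At an unadjusted p under 0.05, 0 were higher (0.939%) and 1, PPFIA4, was lower in the TCEP step (-0.69 ± 0.294; adjusted p = 0.9999; 0.716% of all genes). With the number as a block in edgeR, the lowest adjusted p of the group for this difference was 0.856. HIF1A (-0.17), PLOD2 (-0.19), KDM3A (-0.15) and PPFIA4 (-0.69) then had unadjusted p-values of 0.0194 to 0.0346. The share over all genes in that fit, and the other tools' results for this difference, are not given here. The steps differ in concentration and compound at once, so their sizes are given side by side only.

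**Figure D5:**
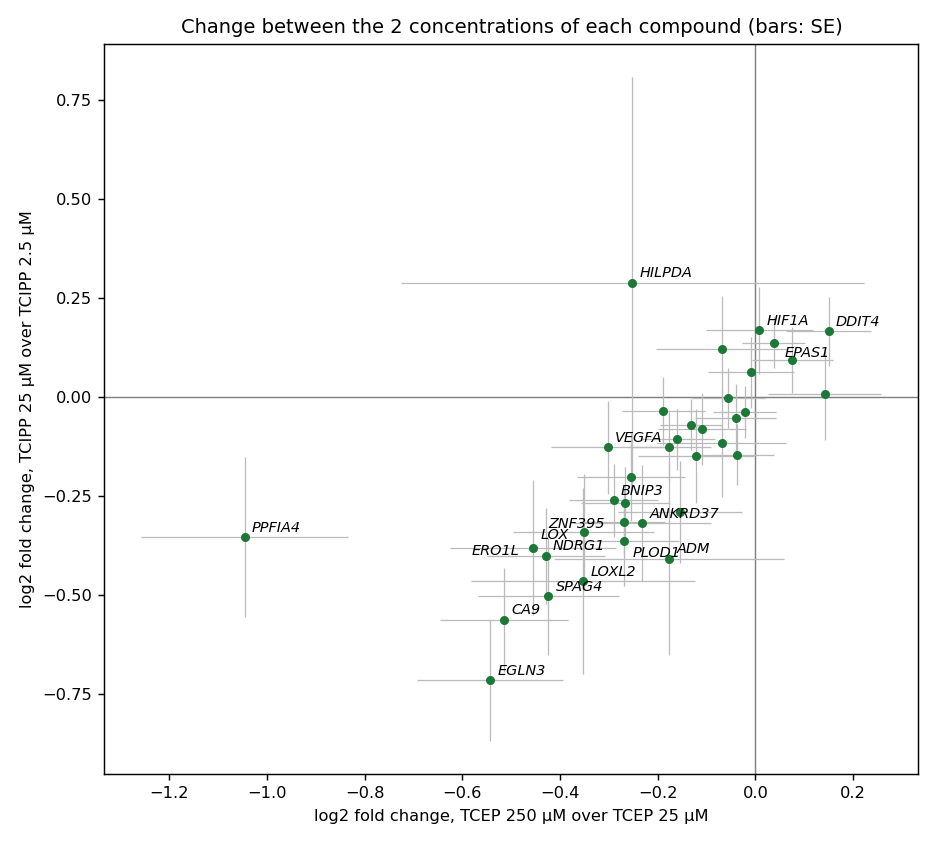
Each point is a tested gene: log2 fold change of 250 µM over 25 µM TCEP on the x axis and of 25 µM over 2.5 µM TCIPP on the y axis, with bars for the SE. EGLN3 and CA9 lie low on both axes, PPFIA4 is lowest on the x axis at -1.05, and DDIT4 lies above 0 on both.

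TCIPP and TCEP were both given at 25 µM, the 1 matched concentration and so the 1 pair compared. There EPAS1 and DDIT4 were higher with TCIPP and most target genes lower, but edgeR called 0 of 36 genes (0.0398% of all genes, 0.0159% higher and 0.0239% lower), as did limma-voom (0.0318%), and DESeq2 called EGLN3 and EPAS1 (2.66%). The log2 fold change of TCIPP over TCEP was 0.32 for EPAS1 (95% interval 0.19 to 0.46; adjusted p = 0.0753) and -0.56 for EGLN3 (-0.89 to -0.24; 0.0988). It was -0.35 for CA9 (-0.63 to -0.07; 0.176) and -0.29 for BNIP3 (-0.48 to -0.09; 0.1297). Without adjustment, at a p under 0.05, 2 genes were higher (9.19% of all genes) and 10 lower (8.94%), and the median log2 fold change was -0.13. In 3 genes all TCIPP libraries lay above all TCEP libraries (10.4%) and in 7 all lay below (9.82%). With the block 14 genes fell and DDIT4 and EPAS1 rose. Of all genes, 8.59% were then called lower and 8.16% higher (16.8% in either direction). Without TCIPP 25 µM number 2, edgeR called 2 genes. For 24 of the 36 genes the interval includes 0, which does not show that the compounds act alike.

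The machinery around the HIF subunits was examined as 16 genes, among them VHL, CREBBP, EP300 and HSPA9, of which 14 were tested. EdgeR called 0 of 14 in each of the 8 comparisons (0% to 1.09% of all genes), and limma-voom likewise 0 (0% to 1.50%). DESeq2 called 1, higher, at 25 µM TCIPP against 25 µM TCEP (2.66% of all genes in either direction) and 0 elsewhere (0.111% to 2.75%). With the block 3 of 13 rose in that comparison (8.16% of all genes were called higher) and 1 across both compounds (6.65%). Without adjustment edgeR had 3 of 14 higher at 25 µM TCIPP against 25 µM TCEP (9.19% of all genes) and 2 across both compounds (7.72%). It had 1 higher at 25 µM TCIPP against DMSO (3.41%) and 1 between the TCIPP concentrations (5.03%). In the other comparisons 0 were higher (2.39% to 7.81%), and 0 were lower in any comparison (2.81% to 8.94%). VHL, the recognition subunit of the ligase that removes HIF alpha, averaged 82.3 ± 3.49 CPM at the higher concentrations and 76.8 ± 3.66 CPM at the lower ones (SD, n = 6 each; log2 fold change 0.10 ± 0.0468, adjusted p = 0.294, edgeR). HSPA9, a mitochondrial chaperone, averaged 636 ± 47.6 CPM at the higher concentrations and 580.2 ± 22.2 CPM at the lower ones (SD, n = 6 each; log2 fold change 0.13 ± 0.0563, adjusted p = 0.247, edgeR).

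Glycolytic HIF targets followed the order of the group between concentrations. Of 24 genes, all tested, 3 fell across both compounds (0.700% of all genes), 0 rose (0.390%), and 16 were lower at an unadjusted p under 0.05 (8.61%), with a median log2 fold change of -0.17. DESeq2 called 8 lower and limma-voom 4, where 2.75% and 1.50% of all genes were called in either direction. With the block 18 fell, where 7.77% of all genes were called lower and 14.4% in either direction. PGK1, which makes ATP in glycolysis, had 967, 1129 and 1081 CPM with TCEP at 250 µM and 1291, 1510.1 and 1238 CPM with TCEP at 25 µM. It had 1046, 1179.6 and 1066 CPM with TCIPP at 25 µM, 1294, 1489 and 1299.5 CPM at 2.5 µM and 1032, 1078 and 1101 CPM with DMSO. All libraries at the higher concentrations lay below all at the lower ones, and PGK1 averaged 1078 ± 72.6 CPM at the higher concentrations and 1354 ± 115 CPM at the lower ones (SD, n = 6 each; log2 fold change -0.33 ± 0.0613, adjusted p = 0.0226, edgeR). The PGK1 call was lost when 1 library was left out, namely TCEP 250 µM number 1 or 3, TCEP 25 µM number 2, TCIPP 25 µM number 1 or TCIPP 2.5 µM number 2, with adjusted p-values of 0.0576 to 0.0882. ENO1, the enolase, averaged 2607 ± 82.8 CPM at the higher concentrations and 3049 ± 173 CPM at the lower ones (SD, n = 6 each; log2 fold change -0.23 ± 0.0475, adjusted p = 0.0362, edgeR). The ENO1 call was lost when 1 library was left out, namely TCEP 250 µM number 1 or 3, TCEP 25 µM number 1 or 2, TCIPP 25 µM number 1 or 3 or TCIPP 2.5 µM number 2 or 3, with adjusted p-values of 0.0562 to 0.122. PFKFB4, which sets the level of fructose 2,6-bisphosphate, averaged 85.8 ± 8.38 CPM at the higher concentrations and 103 ± 8.94 CPM at the lower ones (SD, n = 6 each; log2 fold change -0.27 ± 0.0568, adjusted p = 0.0362, edgeR). The PFKFB4 call was lost when 1 library was left out, namely TCEP 250 µM number 1 or 3, TCEP 25 µM number 2, TCIPP 25 µM number 1 or 3 or TCIPP 2.5 µM number 2 or 3, with adjusted p-values of 0.0624 to 0.119. Without the libraries numbered 2, PGK1 and PFKFB4 were called (adjusted p = 0.0317 and 0.0421) and ENO1 was not (0.0707). GAPDH, at 4122 CPM at the higher and 4942 CPM at the lower concentrations, just missed (adjusted p = 0.0576). Against DMSO edgeR called 0 of the 24 in each of the 4 comparisons. Unadjusted, at a p under 0.05, 0 were higher at 250 µM TCEP, 10 at 25 µM TCEP, 1 at 25 µM TCIPP and 17 at 2.5 µM TCIPP, where 2.39%, 7.42%, 3.41% and 7.81% of all genes were, and 0 were lower. In the same order, DESeq2 called 0, 3, 0 and 11 (0.111%, 1.10%, 0.239% and 1.89% of all genes), and limma-voom 0, 0, 0 and 4 (0%, 0.0318%, 0.00796% and 0.828%).

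Of 37 hypoxia-responsive genes in another list, 35 were tested, and 2 fell between the higher and lower concentrations (0.700% of all genes), with 0 rising (0.390%). The median log2 fold change over the 35 was -0.05. The list shares HK2 with the glycolytic genes, CITED2 with the machinery and TF with the hepatocyte markers. HMOX1, the heme oxygenase that also answers to oxidative stress, averaged 31.9 ± 3.23 CPM at the higher concentrations and 44.5 ± 5.93 CPM at the lower ones (SD, n = 6 each; log2 fold change -0.48 ± 0.0834, adjusted p = 0.0156, edgeR). The HMOX1 call was lost when 1 library was left out, namely TCEP 250 µM number 1 or 3 or TCEP 25 µM number 2, with adjusted p-values of 0.0567 to 0.0614. IGFBP3, a secreted carrier of insulin-like growth factors, averaged 55.5 ± 23.1 CPM at the higher concentrations and 121 ± 42.8 CPM at the lower ones (SD, n = 6 each; log2 fold change -1.15 ± 0.268, adjusted p = 0.0484, edgeR). Its libraries had 36.6, 81.5 and 53.02 CPM with TCEP at 250 µM and 83.97, 174 and 104 CPM at 25 µM, then 36.9, 86.9 and 38.02 CPM with TCIPP at 25 µM and 80.2, 175 and 109.5 CPM at 2.5 µM, and 30.4, 66.8 and 37.6 CPM with DMSO. Number 2 was the highest in each of the 5 groups. The IGFBP3 call was lost when 1 library was left out, namely TCEP 250 µM number 1 or 3, TCEP 25 µM number 1, 2 or 3, TCIPP 25 µM number 1 or 3, TCIPP 2.5 µM number 2 or 3 or DMSO number 1 or 3, with adjusted p-values of 0.0515 to 0.155. Without the libraries numbered 2 the IGFBP3 log2 fold change was -1.20 (adjusted p = 0.0109) and that of HMOX1 -0.44 (0.0269). IGFBP1 and SERTAD2 did not share this difference between concentrations (-0.02, adjusted p = 0.920, and -0.04, adjusted p = 0.803, edgeR). IGFBP1 averaged 2491 CPM at 250 µM TCEP, 2418 at 25 µM TCEP, 2452 at 25 µM TCIPP and 2612 at 2.5 µM TCIPP, against 1859 with DMSO. EdgeR called none of these 4 differences from DMSO (adjusted p = 0.0639 to 0.508). Without adjustment, 11 of the 35 were lower (8.61% of all genes) and 2 higher (7.72%). DESeq2 called 4 lower (2.75% of all genes in either direction) and limma-voom 3 (1.50%). With the block 9 fell (7.77%) and 1 rose (6.65%). Against DMSO edgeR called 0 of 35 in each comparison, with 2, 11, 2 and 13 higher at an unadjusted p under 0.05 at 250 µM TCEP, 25 µM TCEP, 25 µM TCIPP and 2.5 µM TCIPP (2.39%, 7.42%, 3.41% and 7.81% of all genes), and 0, 1, 0 and 1 lower (2.81%, 7.81%, 2.95% and 6.06%). DESeq2 called 3 and limma-voom 2 at 2.5 µM TCIPP (1.89% and 0.828%), and 0 in the other 3.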

How the data were processed

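Poly-A RNA of HepG2 cells was sequenced from stranded libraries on an Illumina instrument as paired reads of 50 bp, per the labels' protocols and the series' design text. According to the design text, CLC Genomics Workbench did the mapping and annotation, and per the submitters' processing notes the genome was hg19 (GRCh37). The software's version and any use of strand in counting are not given in the sources used here. Per the file headers, the deposited tables hold whole-number counts per gene (gene, exon and intron reads, total and unique), RPKM and the authors' normalized expression values, a signal that was quantile normalized according to the same design text and was not used here. RPKM, as deposited, was used only to order levels between genes.

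Total exon read counts were tested with edgeR 4.0.16 in R 4.3.3 by the quasi-likelihood test, with TMM scaling, filterByExpr and all 15 libraries in 1 fit, and p-values were adjusted by Benjamini-Hochberg over 12567 genes within a comparison. CPM are exon reads over the TMM-scaled library size. Log2 fold changes run higher over lower concentration, exposure over DMSO, and TCIPP over TCEP. DESeq2 1.42.0 and limma 3.58.1 (voom) were alternatives, besides other scalings, no filter, unique exon, gene and intron reads, the replicate number as a block, each library left out and all libraries numbered 2 left out. CA12 and BHLHE41 did not pass the filter. The p-values set group differences against the spread between separately seeded cultures of 1 line. Without the block the libraries are treated as independent, and with it the spread is what remains after the number is taken out. The 95% intervals come from the same edgeR fit and include the spread between libraries. The floor of 3 reads covers counting error only, and the reads carry no molecular identifiers.

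Replicate numbers were taken to pair the treated libraries, since all 18 same-number pairs among them correlated above 0.1 over all genes. Same-number pairs with DMSO were weaker (3 of 12 above 0.1) and were not used as pairs. The labels do not say what a number shares, and the block on the treated libraries was chosen after the data were seen. The genes and lists were chosen with earlier results of these data known. Genes described in full are 14 listed by name in the rule, every other with an adjusted p under 0.15 in a comparison and the 3 with the smallest p in each, and the rest are given by range. From other lists up to 4 genes with the smallest p are named. The promoter windows come from RefSeq GRCh38.p14, gene spans from hg19.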

Additional observations from a re-analysis of the deposited data

How the results depend on the processing

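Direction was more stable than the number of calls. The median over the 36 genes kept its sign in all 8 comparisons under every setting tried, except at 250 µM TCEP against DMSO, where it lay near 0. The settings named here are those that moved a count by over 1.5 times or a median beyond its spread, and the cause was not tested. Without a filter on low counts (22008 genes), the hypoxia genes called were 12 for 25 µM TCEP against DMSO, 1 for 25 µM TCIPP against DMSO, 14 for 2.5 µM TCIPP against DMSO, 6 for 250 against 25 µM TCEP, 8 for 25 against 2.5 µM TCIPP, 8 for 25 µM TCIPP against 25 µM TCEP and 14 for the higher against the lower concentrations. Calls over all genes were 50 for 250 µM TCEP against DMSO, 618 for 25 µM TCEP against DMSO, 80 for 25 µM TCIPP against DMSO, 553 for 2.5 µM TCIPP against DMSO, 161 for 250 against 25 µM TCEP, 345 for 25 against 2.5 µM TCIPP, 756 for 25 µM TCIPP against 25 µM TCEP and 728 for the higher against the lower concentrations. With DESeq2, the hypoxia genes called were 3 for 25 µM TCEP against DMSO, 2 for 25 µM TCIPP against DMSO, 8 for 2.5 µM TCIPP against DMSO, 2 for 25 against 2.5 µM TCIPP and 2 for 25 µM TCIPP against 25 µM TCEP. Among all genes, calls were 14 for 250 µM TCEP against DMSO, 138 for 25 µM TCEP against DMSO, 30 for 25 µM TCIPP against DMSO, 237 for 2.5 µM TCIPP against DMSO, 14 for 250 against 25 µM TCEP, 62 for 25 against 2.5 µM TCIPP, 334 for 25 µM TCIPP against 25 µM TCEP and 345 for the higher against the lower concentrations. With limma-voom, the hypoxia genes called were 4 for 2.5 µM TCIPP against DMSO. Among all genes, calls were 4 for 25 µM TCEP against DMSO and 104 for 2.5 µM TCIPP against DMSO. With only the groups compared in the fit, the hypoxia genes called were 3 for 25 µM TCEP against DMSO, 2 for 2.5 µM TCIPP against DMSO and 4 for the higher against the lower concentrations. Among all genes, calls were 135 for 25 µM TCEP against DMSO, 0 for 25 µM TCIPP against DMSO, 23 for 2.5 µM TCIPP against DMSO, 0 for 25 µM TCIPP against 25 µM TCEP and 89 for the higher against the lower concentrations. With unique exon reads, the hypoxia genes called were 5 for 2.5 µM TCIPP against DMSO. Calls over all genes were 2 for 25 µM TCEP against DMSO, 122 for 2.5 µM TCIPP against DMSO and 211 for the higher against the lower concentrations. With total gene reads, the hypoxia genes called were 0 for 2.5 µM TCIPP against DMSO and 4 for the higher against the lower concentrations. Among all genes, calls were 1 for 250 µM TCEP against DMSO, 0 for 2.5 µM TCIPP against DMSO and 13 for 25 µM TCIPP against 25 µM TCEP. Scaled by library totals, the calls over all genes were 0 for 25 µM TCIPP against DMSO, 35 for 2.5 µM TCIPP against DMSO and 2 for 25 µM TCIPP against 25 µM TCEP. With the replicate number as a block in all 15 libraries, the hypoxia genes called were 14 for 25 µM TCEP against DMSO, 19 for 2.5 µM TCIPP against DMSO, 10 for 250 against 25 µM TCEP, 12 for 25 against 2.5 µM TCIPP, 9 for 25 µM TCIPP against 25 µM TCEP and 15 for the higher against the lower concentrations. Calls over all genes were 34 for 250 µM TCEP against DMSO, 1037 for 25 µM TCEP against DMSO, 47 for 25 µM TCIPP against DMSO, 941 for 2.5 µM TCIPP against DMSO, 185 for 250 against 25 µM TCEP, 484 for 25 against 2.5 µM TCIPP, 1100 for 25 µM TCIPP against 25 µM TCEP and 1103 for the higher against the lower concentrations. Same-number pairs with a DMSO library correlated only weakly (r of 0.0164 to 0.158). The block was therefore not relied on for the comparisons with DMSO. The next 3 settings were chosen after the data were seen. With the replicate block in the 12 treated libraries alone, the hypoxia genes called were 15 for 250 against 25 µM TCEP, 16 for 25 against 2.5 µM TCIPP, 16 for 25 µM TCIPP against 25 µM TCEP and 23 for the higher against the lower concentrations. Calls over all genes were 555 for 250 against 25 µM TCEP, 948 for 25 against 2.5 µM TCIPP, 2096 for 25 µM TCIPP against 25 µM TCEP and 1804 for the higher against the lower concentrations. Without all libraries numbered 2, the hypoxia genes called were 2 for 2.5 µM TCIPP against DMSO and 4 for the higher against the lower concentrations. Among all genes, calls were 30 for 25 µM TCEP against DMSO, 0 for 25 µM TCIPP against DMSO, 122 for 2.5 µM TCIPP against DMSO and 1 for 25 µM TCIPP against 25 µM TCEP. The median log2 fold change was 0.20 for 2.5 µM TCIPP against DMSO. With intron reads (10256 genes), the hypoxia genes called were 0 for 2.5 µM TCIPP against DMSO and 0 for the higher against the lower concentrations. Among all genes, calls were 1 for 25 µM TCEP against DMSO, 0 for 25 µM TCIPP against DMSO, 0 for 2.5 µM TCIPP against DMSO, 0 for 25 µM TCIPP against 25 µM TCEP and 4 for the higher against the lower concentrations. The median log2 fold change was 0.0994 for 25 µM TCEP against DMSO, 0.0297 for 25 µM TCIPP against DMSO, 0.14 for 2.5 µM TCIPP against DMSO and -0.0292 for 25 against 2.5 µM TCIPP. Intron reads also turned the sign of single genes: VEGFA -0.26 at 25 µM TCEP against DMSO; VEGFA -0.20, BHLHE40 -0.45 and ZNF395 -0.23 at 25 µM TCIPP and VEGFA -0.18, AK4 -0.0517, BHLHE40 -0.68 and ANKRD37 -0.18 at 2.5 µM TCIPP against DMSO; CA9 0.0526, VEGFA 0.36 and P4HA2 0.0532 between the TCEP concentrations; CA9 0.0674, LOX 0.30, ERO1L 0.0461 and ANKRD37 0.22 between the TCIPP concentrations; and CA9 0.05996, VEGFA 0.17, LOX 0.12 and ANKRD37 0.0637 across both compounds. With 1 library left out in turn, the hypoxia genes called ran 0 to 0 for 250 µM TCEP against DMSO, 0 to 1 for 25 µM TCEP against DMSO, 0 to 0 for 25 µM TCIPP against DMSO, 0 to 5 for 2.5 µM TCIPP against DMSO, 0 to 0 for 250 against 25 µM TCEP, 0 to 0 for 25 against 2.5 µM TCIPP, 0 to 2 for 25 µM TCIPP against 25 µM TCEP, 0 to 9 for the higher against the lower concentrations. Over all genes the calls ran 0 to 1 for 250 µM TCEP against DMSO, 0 to 29 for 25 µM TCEP against DMSO, 0 to 5 for 25 µM TCIPP against DMSO, 0 to 307 for 2.5 µM TCIPP against DMSO, 0 to 0 for 250 against 25 µM TCEP, 0 to 3 for 25 against 2.5 µM TCIPP, 0 to 208 for 25 µM TCIPP against 25 µM TCEP, 2 to 335 for the higher against the lower concentrations. The medians ran -0.0138 to 0.0671 for 250 µM TCEP against DMSO, 0.16 to 0.27 for 25 µM TCEP against DMSO, 0.0397 to 0.12 for 25 µM TCIPP against DMSO, 0.18 to 0.31 for 2.5 µM TCIPP against DMSO, -0.23 to -0.12 for 250 against 25 µM TCEP, -0.21 to -0.0906 for 25 against 2.5 µM TCIPP, -0.19 to -0.11 for 25 µM TCIPP against 25 µM TCEP, -0.18 to -0.12 for the higher against the lower concentrations. With 1 library left out, 25 to 28 genes were highest at the lower concentration of TCEP and 26 to 30 at that of TCIPP. Other scalings shifted the median of all genes by at most 0.0206 (log2). Depth limits HILPDA, CA12 and BHLHE41.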
